A study of Mus musculus with 46 samples.

Results

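The core circadian clock genes were followed through the ovulatory response of single mouse follicles. The set holds 10 genes chosen by name, of the 25147 genes in the count table: Arntl and Clock, Per1, Per2 and Per3, Cry1 and Cry2, Nr1d1 and Nr1d2, and Bhlhe40. Ovarian follicles of CD-1 mice had been grown in alginate for 8 days with 10 mIU/ml recombinant FSH, the hormone that drives follicle growth. They were freed from the alginate and moved to a maturation medium with 1.5 IU/ml hCG, a hormone that acts on the luteinizing hormone receptor, with 10 ng/ml EGF, 10 mIU/ml recombinant FSH and 10% fetal bovine serum. Single follicles were frozen after 0 h (9 follicles), 1 h (13), 4 h (13) or 8 h (11), giving 46 libraries. The same medium change carried hCG, EGF and serum, and no follicles without hCG were followed over time, so the agents, the medium change and elapsed time cannot be told apart. All 0 h follicles were in batch 2 with 3 follicles of 1 h and 3 of 4 h, while batch 1 held 10 follicles of 1 h and 11 of 8 h on 1 plate and 10 of 4 h on another. The labels do not tie follicles to animals, so every p-value measures the spread between follicles, which may share a mouse.

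The clock is a loop of transcription and its own repression. The proteins of Arntl (BMAL1) and Clock form a pair that binds E-box sequences and turns on the Per and Cry genes, whose products then block that pair. The nuclear receptors encoded by Nr1d1 and Nr1d2 (REV-ERB alpha and beta) repress Arntl, and Bhlhe40 (DEC1) is a repressor that binds E-boxes. In many cell types serum, cyclic AMP and growth factor signals are known to induce Per1 within an hour, and gonadotropins are known to act on clock genes in granulosa cells.

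Levels below are read counts scaled to a common library size of 1000000 (CPM) after TMM scaling, which suit comparing 1 gene across follicles. Tests are edgeR quasi-likelihood tests with batch as a term, and a gene is called where the adjusted p is under 0.05 over the 8629 genes tested. Library totals lay between 241442 and 5185044 counts. The 0 h libraries were deepest (median 3286107), those of 1 h shallowest (730895), and those of 4 h and 8 h in between (1432395 and 1755429). A set of 3332 genes that had counts in batch 1 but none in the 6 batch 2 libraries after hCG made up between 22.6% and 46.2% of a 0 h library but no more than 0.0667% of a later one. No clock member was among them. These genes lower the length-corrected level (TPM) of every other gene at 0 h. On the TPM scale the median log2 fold change over all genes lay higher than on the count scale by 0.31, 0.45 and 0.56 in the comparisons of 1, 4 and 8 h with 0 h. The share of called genes that rose moved with it, from 35.9% to 48.3%, from 40.5% to 57.1% and from 38.8% to 63.3%. After thinning every library to 241442 counts it was 51.8%, 50.8% and 52.1%. For 4 h against 1 h, 8 h against 4 h and 8 h against 1 h, the TPM scale moved that share from 47.3% to 63.0%, from 47.8% to 57.5% and from 47.3% to 69.9%. On the count scale without the 3332 genes, the medians of 1, 4 and 8 h against 0 h lay higher by 0.07, 0.18 and 0.15. The share risen there was 42.0%, 49.0% and 47.6%. The part of these genes in the TPM shift was not tested. Of the 10 clock genes 9 passed the filter on low counts. Per2 did not, and Per3 passed on 6 libraries of 0 h and 4 of 1 h alone, so counts over the genes tested are not counts over all 10.

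Granulosa cell markers checked the label of the tissue, with a summed level over 7 genes of 18112 to 54730 CPM in the follicles of 0 h, 16766 to 57037 in those of 1 h, 13212 to 52094 in those of 4 h and 8922 to 18473 in those of 8 h. Oocyte markers were near 0, at no more than 127 CPM for the 8 genes together in any library, and 1 of the 8 passed the filter. The median granulosa sum was 38266 CPM before hCG and then 30977, 27530 and 14463 CPM, and 2, 4 and 6 of its 6 tested genes fell against 0 h at the 3 times, while 1 rose at 1 h. The summed smooth muscle markers had a median of 142 CPM before hCG and of 1214, 802 and 237 CPM at the later times, with ranges of 27.0 to 475, 482 to 2414, 122 to 1548 and 59.1 to 411 CPM. Of the 3 tested, 2 rose at 1 h, 3 at 4 h and 0 at 8 h. Theca and stroma markers had medians of 789, 1250, 248 and 217 CPM in the same order, with ranges of 301 to 2229, 206 to 3248, 45.1 to 2235 and 32.3 to 2817 CPM, and 0, 2 and 4 of the 8 tested fell. The summed endothelial markers reached at most 144 CPM and the leukocyte markers at most 307 CPM in any library. Ptprc, the pan-leukocyte marker, had no count in any 1 h follicle or in batch 1 at 4 h. In batch 2 Amh had none after hCG, Kdr, Tek and Cnn1 none at 1 h, and Myh11 and Adgre1 none at 4 h. Amh had counts at 0 h and in batch 1, so it belongs to the set of genes described above, and the granulosa sums include it. The part of these shifts in the clock gene results was not tested, and in whole follicles fewer cells of a type and less RNA per cell cannot be told apart.

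Against 0 h, 6, 6 and 7 of the 9 clock genes tested differed at the 3 later times. At 1 h Cry2, Per1, Bhlhe40 and Nr1d2 rose and Per3 and Nr1d1 fell, so that 4 of the 9 genes tested rose and 2 fell, where 12.4% of all genes tested rose and 22.2% fell. At 4 h Bhlhe40, Cry2 and Cry1 were above 0 h and Per3, Nr1d1 and Nr1d2 below it, 3 in each direction, with 21.9% of all genes risen and 32.2% fallen. At 8 h Bhlhe40, Per1, Cry2 and Arntl were higher and Per3, Nr1d1 and Nr1d2 lower, 4 and 3 of 9, against 17.5% and 27.6% of all genes. Per3 counts among the falls at 4 h and 8 h with the limit given above on how it passed the filter. No batch held both 0 h and 8 h, so each value at 8 h against 0 h adds up differences within batches. It takes the shift between batches as the same at 1 h and 4 h. For Per1 and Bhlhe40 the step between those 2 times differed between batches, as given below. Any change over the 4 times was called for 8 of 9, all but Clock, whose adjusted p by edgeR was 0.0514, where 79.8% of all genes tested were called. The median log2 fold change of the 9 genes was 0.20, 0.49 and 0.12 at the 3 times, beside -0.19, -0.12 and -0.15 over all genes tested.

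**Figure D1:**
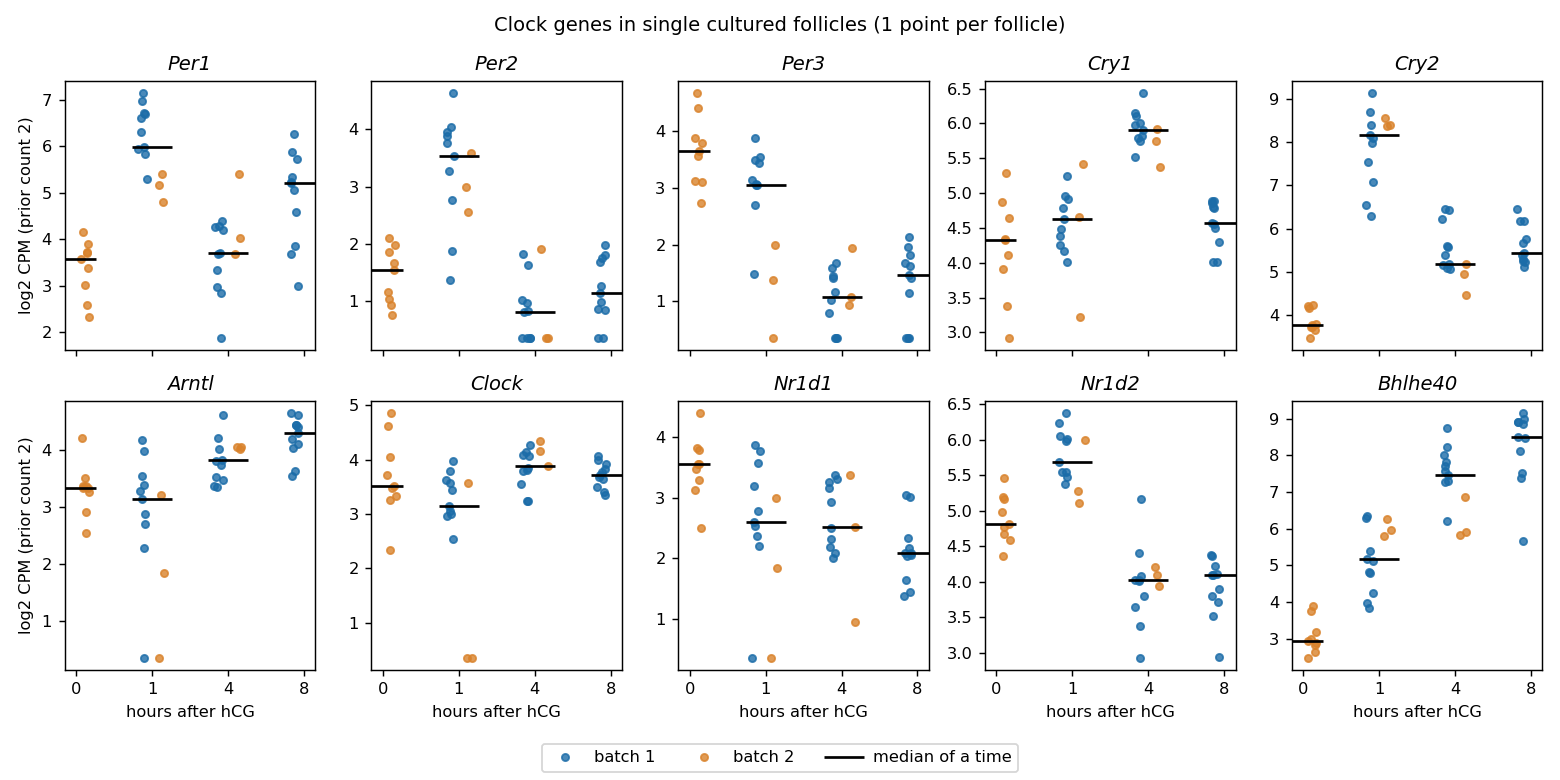
Each point is 1 follicle, with hours after hCG on the x axis and log2 CPM (prior count 2) on the y axis, whose range differs between panels; blue is batch 1, orange batch 2 and the black bar the median of a time. Cry2, Per1 and Per2 were highest at 1 h, Cry1 at 4 h and Bhlhe40 at 8 h, while Per3 was highest at 0 h.

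The period genes encode repressors of the BMAL1 and CLOCK pair, and the 3 members took different courses. Per1 (chromosome 11, 69095217 to 69109960 in GRCm38) is the member best known for a fast response to outside signals. In the 9 follicles at 0 h it ran from 3.75 to 16.5 CPM with a median of 10.6. At 1 h the 13 follicles ran from 26.8 to 140.0 CPM with a median of 62.0, all above the highest 0 h follicle. At 4 h the range was 2.39 to 40.8 CPM with a median of 11.9, and at 8 h it was 6.68 to 75.3 CPM with a median of 35.5. Both later ranges overlapped that of 0 h. The log2 fold change against 0 h was 2.91 ± 0.48 (SE, 13 against 9 follicles) at 1 h, with an adjusted p by edgeR of 6.1e-06. It was 0.53 ± 0.45 at 4 h, which was not called (adjusted p = 0.32), and 1.81 ± 0.53 at 8 h (adjusted p = 0.0043), both by edgeR. All 0 h follicles are in batch 2, and in that batch alone the values were 1.87 at 1 h, or 3.66-fold, and 1.28 at 4 h, both called. From 4 h to 8 h Per1 rose by 1.28 ± 0.35 on the log2 scale (edgeR adjusted p = 0.0027). That step rests mainly on 2 plates of batch 1, and in batch 1 alone it was 1.57 and called. With a term for each of the 3 library sets (2 plates and batch 2) the sign of the step turned, to -0.67, and the value at 8 h against 0 h was 0.55 and not called.

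Per2 (chromosome 1, 91415982 to 91459324) was sparse, with at most 14 counts in any follicle and 146 counts in all 46 libraries. It ran from 0.419 to 3.00 CPM at 0 h (median 1.65) and from 1.30 to 23.5 CPM at 1 h (median 10.3). At 4 h it ran from 0 to 2.49 CPM with no count in 6 of 13 follicles, and at 8 h from 0 to 2.65 CPM with none in 2 of 11. The 3 follicles of batch 2 at 1 h, at 4.62, 6.66 and 10.7 CPM, were all above the 9 of 0 h. Without the filter on low counts edgeR gave a log2 fold change at 1 h of 2.31 ± 0.71 (adjusted p = 0.020), and from 1 h to 4 h a fall of -3.48 ± 0.51. In the authors' deposited table Per2 was 5.87-fold higher at 1 h than at 0 h.

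Per3 (chromosome 4, 151003652 to 151044665) moved the other way. It ran from 5.33 to 24.1 CPM at 0 h (median 11.2), from 0 to 13.4 CPM at 1 h (median 7.0), from 0 to 2.55 CPM at 4 h (median 0.831) and from 0 to 3.13 CPM at 8 h (median 1.49). No follicle at 4 h or 8 h reached the lowest of 0 h. The log2 fold change against 0 h was -4.11 ± 0.59 at 4 h (edgeR adjusted p = 8.8e-08) and -3.99 ± 0.71 at 8 h (edgeR adjusted p = 8.4e-06). Per3 passed the filter on libraries of 0 h and 1 h alone, so its falls to 4 h and 8 h follow in part from how it entered the test. Before scaling, the 24 later follicles held 0 to 6 counts each, in counts the authors had adjusted between batches, so the depth of the fall is loosely fixed. It was -3.04 at 4 h in batch 2 alone and -5.60 at 8 h with a term for each of the 3 library sets, both called. The fall at 1 h, -1.75 ± 0.63 (edgeR adjusted p = 0.028), was no longer called without 1 h replicate 11, 12 or 13, or without 4 h replicate 11, with values between -1.67 and -1.29. It was larger, at -3.16, and called in batch 2 alone. From 1 h to 4 h Per3 fell by 2.37 ± 0.44 on the log2 scale (edgeR adjusted p = 1.3e-05), but the 3 batch 2 follicles at 1 h were already at 0, 1.33 and 2.68 CPM, and in batch 2 alone the value was 0.12.

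The cryptochromes are the partners of the PER proteins in the repressor complex, and Cry2 gave the steepest early rise of the 9 genes tested. Cry2 (chromosome 2, 92403646 to 92434043) ran from 9.75 to 17.4 CPM at 0 h (median 12.4) and from 76.5 to 561.7 CPM at 1 h (median 284.7). At 4 h it ran from 20.8 to 87.0 CPM (median 35.2) and at 8 h from 33.4 to 86.8 CPM (median 41.7). All 37 follicles after hCG were above every follicle of 0 h. The log2 fold change was 4.30 ± 0.33 at 1 h, or 19.6-fold, with an edgeR adjusted p of 5.1e-15. It was 1.68 ± 0.34 at 4 h (edgeR adjusted p = 5.5e-05) and 1.78 ± 0.38 at 8 h (edgeR adjusted p = 1.4e-04). Between 4 h and 8 h it moved by 0.10 ± 0.24 and was not called. The authors' deposited table gave a 20.4-fold rise at 1 h. The libraries carry no strand, and 295 bases of the Cry2 exons (4.67%) overlap an antisense gene, D930015M05Rik, whose reads cannot be told apart there.

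Cry1 (chromosome 10, 85131700 to 85185064) peaked later. It ran from 6.28 to 37.6 CPM at 0 h (median 18.7), from 8.04 to 41.6 CPM at 1 h (median 23.5), from 40.2 to 85.1 CPM at 4 h (median 58.6) and from 14.8 to 28.4 CPM at 8 h (median 22.4). All 13 follicles at 4 h were above all of 0 h and all of 8 h. The log2 fold change against 0 h was 0.20 ± 0.28 at 1 h (not called), 1.50 ± 0.26 at 4 h (edgeR adjusted p = 4.6e-06) and 0.12 ± 0.31 at 8 h (not called). Without the 5 libraries of 0 h that carry the mark _ds, whose meaning the labels do not give, Cry1 was called at 1 h (0.95) and 8 h (0.93), and limma on TPM called it at 8 h (0.74). The drop from 4 h to 8 h was -1.38 ± 0.20 (edgeR adjusted p = 1.4e-07), and was -1.05 and not called with a term for each of the 3 library sets. The step from 1 h to 4 h was a rise of 1.30 ± 0.20 (edgeR adjusted p = 2.6e-07). In batch 1 the ranges of these times were apart, 14.9 to 36.5 CPM at 1 h and 44.5 to 85.1 at 4 h. In batch 2 they overlapped, at 8.04, 24.0 and 41.6 CPM and at 40.2, 52.3 and 59.0 CPM, and the step of 1.06 was not called there.

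Promoter windows are shown for these genes because Per1 and Cry2 shared the 1 h peak, Cry1 peaked at 4 h and Per3 fell. They were picked after those courses were seen. Nr1d2 also had its highest median at 1 h, and its window was searched but is not shown. Each runs from 250 bases before to 50 bases after a start listed in RefSeq (GRCm38.p6), 5′ to 3′ on the gene's strand, and windows were found for 8 of the 10 genes. The letters searched on both strands were the E-box CACGTG, bound by BMAL1 with CLOCK and by DEC1, the cyclic AMP response element TGACGTCA and the shorter core TGACG, which lies within the full element, the D-box TTATGTAA or TTATGCAA, bound by the proteins of Dbp, Tef, Hlf and Nfil3, and the element TAGGTCA or TGGGTCA bound by REV-ERB and ROR receptors. Capitals mark the matches, which are descriptions of letters and not of binding.

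Per1, first listed start (chr11:69098699-69098998, plus strand): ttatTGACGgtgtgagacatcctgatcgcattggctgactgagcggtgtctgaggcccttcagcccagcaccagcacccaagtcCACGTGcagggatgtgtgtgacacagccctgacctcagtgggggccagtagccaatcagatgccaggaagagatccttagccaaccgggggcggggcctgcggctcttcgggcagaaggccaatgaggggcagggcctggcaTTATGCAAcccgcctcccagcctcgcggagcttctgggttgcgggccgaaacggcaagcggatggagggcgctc
Per1, second listed start (chr11:69099902-69100201, plus strand): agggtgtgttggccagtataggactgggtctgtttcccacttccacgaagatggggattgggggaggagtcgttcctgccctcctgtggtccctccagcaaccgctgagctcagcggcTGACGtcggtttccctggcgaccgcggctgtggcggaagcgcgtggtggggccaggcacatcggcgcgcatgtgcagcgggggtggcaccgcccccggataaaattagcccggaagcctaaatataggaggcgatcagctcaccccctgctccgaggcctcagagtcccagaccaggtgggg
Cry2 (chr2:92434020-92434319, minus strand): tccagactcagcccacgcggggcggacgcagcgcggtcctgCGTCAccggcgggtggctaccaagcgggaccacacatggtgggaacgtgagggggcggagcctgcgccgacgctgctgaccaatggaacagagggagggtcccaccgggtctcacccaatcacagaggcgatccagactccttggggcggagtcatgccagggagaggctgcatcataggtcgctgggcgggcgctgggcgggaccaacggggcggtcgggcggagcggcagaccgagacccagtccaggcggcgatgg
Cry1 (chr10:85185005-85185304, minus strand): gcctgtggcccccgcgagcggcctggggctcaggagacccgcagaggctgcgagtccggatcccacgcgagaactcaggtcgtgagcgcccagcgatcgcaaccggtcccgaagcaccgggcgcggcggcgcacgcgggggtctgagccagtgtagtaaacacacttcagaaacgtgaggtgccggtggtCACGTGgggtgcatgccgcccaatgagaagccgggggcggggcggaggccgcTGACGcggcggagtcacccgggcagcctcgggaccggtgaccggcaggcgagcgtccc
Per3 (chr4:151044616-151044915, minus strand): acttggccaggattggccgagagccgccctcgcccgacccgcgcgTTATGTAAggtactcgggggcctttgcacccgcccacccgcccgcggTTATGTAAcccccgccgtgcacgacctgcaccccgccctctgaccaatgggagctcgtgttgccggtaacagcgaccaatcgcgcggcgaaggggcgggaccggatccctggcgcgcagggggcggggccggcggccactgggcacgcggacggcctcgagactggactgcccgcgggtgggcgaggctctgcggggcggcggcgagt

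The first Per1 window held the core 246 bases before the start, an E-box at 166 and a D-box at 24. The second held a core at 132. In Cry2 the core, read on the opposite strand, lay 209 bases before the start. Cry1 had an E-box at 60 and a core at 8, and Per3 had a D-box at 205 and another at 158. Among all 32851 RefSeq windows, 7.15% held the E-box, 20.8% the core, 1.66% a D-box and 6.45% the REV-ERB and ROR element, which Arntl alone of the 8 genes held, 30 bases after 1 of its starts. The full TGACGTCA was in 1.79% of all windows and in none of the 12 windows of the clock genes. The windows of Nr1d2, which also peaked at 1 h, and of Nr1d1 and Clock held none of the letters searched.

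Arntl and Clock encode the activating pair, and both were called from 1 h to 4 h. Arntl (chromosome 7, 113207465 to 113314126) ran from 4.57 to 17.1 CPM at 0 h (median 8.80), from 0 to 16.7 at 1 h (median 7.57), from 8.88 to 23.1 at 4 h (median 12.9) and from 10.4 to 23.8 at 8 h (median 18.4). The ranges of neighbouring times overlapped throughout. Arntl was higher at 8 h than at 1 h, a comparison that rests mainly on 1 plate of batch 1, with a log2 fold change of 1.22 ± 0.26 (edgeR adjusted p = 8.0e-05), and the step from 1 h to 4 h was 0.78 ± 0.25 (edgeR adjusted p = 0.0072). In batch 2 alone that step was 1.89 and not called, and in batch 1 alone it was 0.59 and called. Against 0 h it was -0.30 ± 0.35 at 1 h and 0.49 ± 0.31 at 4 h, neither called, and 0.92 ± 0.36 at 8 h (edgeR adjusted p = 0.035). That last call was lost without 4 h replicate 12 (0.83) or 13 (0.86), which act through the batch term, and with a term for each of the 3 library sets the value was -0.01.

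Clock (chromosome 5, 76209868 to 76304792) ran from 3.75 to 27.8 CPM at 0 h (median 10.1), from 0 to 14.5 at 1 h (median 7.57), from 8.13 to 19.1 at 4 h (median 13.4) and from 8.90 to 15.4 at 8 h (median 11.8). Its log2 fold changes against 0 h were -0.74 ± 0.37, 0.04 ± 0.32 and -0.15 ± 0.39 at 1, 4 and 8 h, with edgeR adjusted p of 0.12, 0.93 and 0.79. At 1 h Clock was called, at -1.47, with a term for each of the 3 library sets, and at -1.13 without the _ds libraries. The authors' deposited table gave Clock a signed fold change of -1.76 at 1 h, with a false discovery rate of 0.0148. The step from 1 h to 4 h was called, at 0.78 ± 0.27 (edgeR adjusted p = 0.012), and was 0.59, called, in batch 1 alone and 1.85, not called, in batch 2 alone. In 1 h libraries the median count was 5 for each of the 2 genes, and 2 of the 13 follicles had none.

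The REV-ERB genes differed from each other at 1 h. Nr1d2 (chromosome 14, 18204054 to 18239127) ran from 19.3 to 42.8 CPM at 0 h (median 26.9), from 33.3 to 81.9 at 1 h (median 50.0), from 6.35 to 34.6 at 4 h (median 14.9) and from 6.4 to 19.5 at 8 h (median 15.8). Every follicle at 1 h was above every follicle at 8 h. The rise at 1 h was 0.81 ± 0.24 on the log2 scale (edgeR adjusted p = 0.0089) and was 0.65, not called, in batch 2 alone. The falls against 0 h were -1.09 ± 0.24 at 4 h (edgeR adjusted p = 1.8e-04) and -1.13 ± 0.28 at 8 h (edgeR adjusted p = 0.0011). From 1 h to 4 h it fell by 1.90 ± 0.18 (edgeR adjusted p = 9.1e-13). On the TPM scale the values against 0 h were -0.40 at 4 h and -0.42 at 8 h and were not called by limma.

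Nr1d1 (chromosome 11, 98767932 to 98775333) was low, with median counts of 19 at 0 h and 3 to 7 later. It ran from 4.4 to 20.0 CPM at 0 h (median 10.5), from 0 to 13.4 at 1 h (median 4.78), from 0.637 to 9.14 at 4 h (median 4.47) and from 1.31 to 6.95 at 8 h (median 2.97). Its log2 fold changes against 0 h were -1.32 ± 0.49, -1.34 ± 0.46 and -2.08 ± 0.54, with edgeR adjusted p of 0.033, 0.012 and 0.0016. The call at 1 h was lost without 1 h replicate 12 (-1.15) or 13 (-1.13) or 4 h replicate 11 (-0.98), and that at 4 h without 4 h replicate 11 (-0.87). With the 5 _ds libraries left out the 3 values were -0.78, -0.74 and -1.47, and none was called. Of its exons 263 bases (8.55%) overlap Thra on the opposite strand, and reads there cannot be assigned to 1 of the 2 genes without strand.

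Bhlhe40 (chromosome 6, 108660629 to 108666925), a repressor that many stimuli induce, was above its 0 h level at all 3 later times. It ran from 4.35 to 13.5 CPM at 0 h (median 6.42), from 13.1 to 79.8 at 1 h (median 35.1), from 55.7 to 429.3 at 4 h (median 176.8) and from 49.8 to 570.7 at 8 h (median 359.8). All follicles of 4 h and 8 h were above all of 0 h, while the ranges of 1 h, 4 h and 8 h overlapped, 8 h replicate 4 being the lowest of its group. The log2 fold change against 0 h was 2.26 ± 0.46, 4.29 ± 0.48 and 5.21 ± 0.53 at the 3 later times, the last 36.9-fold, with edgeR adjusted p of 1.5e-04, 2.0e-10 and 2.8e-11. The step from 4 h to 8 h was 0.92 ± 0.31 (edgeR adjusted p = 0.013), and that from 1 h to 8 h, mainly on 1 plate, was 2.95 ± 0.36 (edgeR adjusted p = 1.6e-09). In batch 1 alone the step from 4 h to 8 h was 0.71 and was not called. The value at 8 h against 0 h joins the 2 batches through 1 h and 4 h, and the step between those times differed between batches. In batch 2 alone the values against 0 h were 3.10 at 1 h and 3.40 at 4 h, or 8.57-fold and 10.6-fold, and with a term for each of the 3 library sets the rise at 8 h was 77.9-fold, all called. The authors' deposited table gave 5.50-fold, 23.8-fold and 46.0-fold rises at the 3 times.

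**Figure D2:**
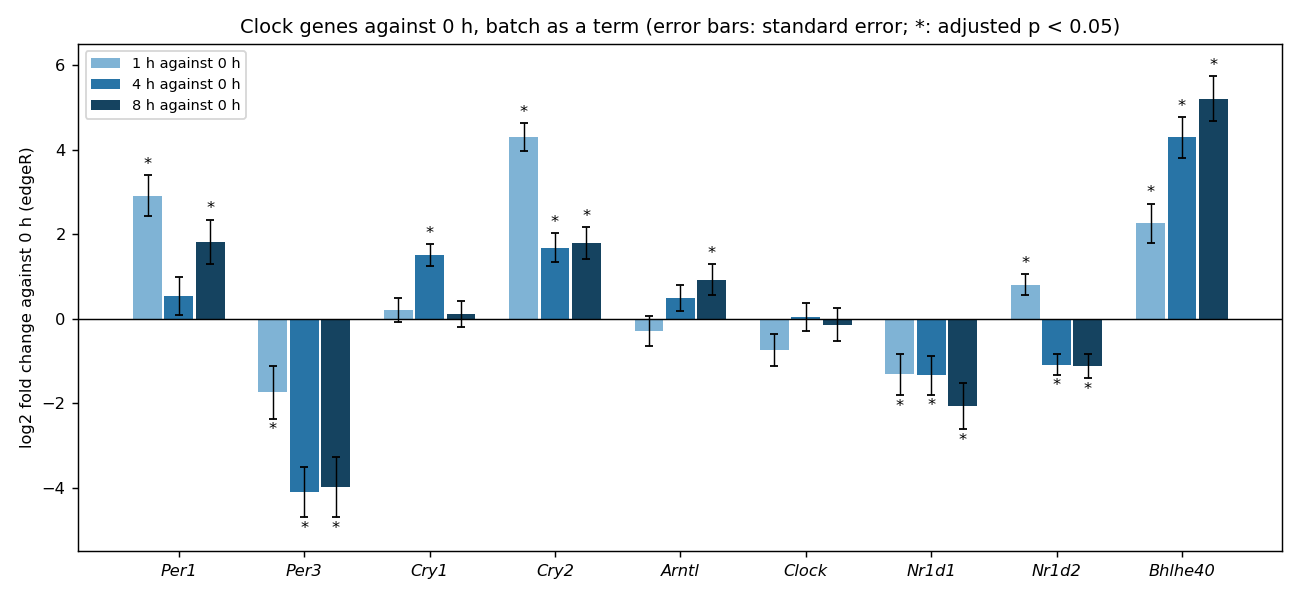
Bars give the edgeR log2 fold change against 0 h for the 9 clock genes tested at 1, 4 and 8 h, error bars the standard error, and stars an adjusted p under 0.05; the groups held 9, 13, 13 and 11 follicles in order of time. Cry2 reached 4.30 at 1 h and Bhlhe40 5.21 at 8 h, while Per3 was at -4.11 at 4 h. Per3 passed the filter on libraries of 0 h and 1 h alone, and no batch held both 0 h and 8 h.

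Between successive times 4 members rose and 4 fell from 1 h to 4 h, with 26% and 28.9% of all genes tested called in each direction. The risers were Bhlhe40, Cry1, Arntl and Clock, and the fallers Cry2, Per1, Per3 and Nr1d2. Per3 counts as a faller, here and from 1 h to 8 h, with the limit given above on how it passed the filter. From 4 h to 8 h 2 rose (Per1 and Bhlhe40) and 1 fell (Cry1), against 19.8% and 21.6% of all genes. Arntl was not called from 4 h to 8 h (0.44 ± 0.22, edgeR adjusted p = 0.11). In batch 1 alone Arntl was called, at 0.54, and Bhlhe40 was not, at 0.71. With a term for each of the 3 library sets Arntl was at -0.75 and not called. From 1 h to 8 h, the comparison that rests mainly on 1 plate, 2 rose (Bhlhe40 and Arntl) and 4 fell (Cry2, Per3, Nr1d2 and Per1), against 23.2% and 25.9%. Per1 fell there by 1.10 ± 0.32 and Cry2 by 2.51 ± 0.26, with edgeR adjusted p of 0.0036 and 1.9e-11. Clock was not called from 1 h to 8 h, at 0.59 ± 0.28 (edgeR adjusted p = 0.077). It was called at 0.50 in batch 1 alone and at 0.64 by limma on TPM. The medians of the 9 genes in these 3 steps were -0.02, 0.10 and -0.76, beside -0.06, 0.00 and -0.02 over all genes.

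The step from 1 h to 4 h could be set between batches, and 2 of the 7 clock genes tested differed, where 5.09% of the 5820 genes tested did. Bhlhe40 rose by 2.61 ± 0.37 on the log2 scale in batch 1 alone (10 and 10 follicles) and by 0.30 ± 0.41 in batch 2 alone, where it was not called. Its difference in step, batch 2 minus batch 1, was -2.32 ± 0.64 (edgeR adjusted p = 0.032). In batch 2 its levels were 54.6, 61.6 and 76.2 CPM at 1 h and 55.7, 59.3 and 115.6 CPM at 4 h. In batch 1 they ran from 13.1 to 79.8 and from 72.7 to 429.3 CPM. Per1 stood at -2.81 ± 0.36 in batch 1 and -0.59 ± 0.54 in batch 2 (not called), with a difference of 2.19 ± 0.64 (edgeR adjusted p = 0.040). Its batch 2 levels were 26.8, 34.6 and 41.3 CPM at 1 h and 11.5, 15.0 and 40.8 CPM at 4 h, the last from 4 h replicate 11. The fall of Cry2 was called in both batches, at -2.26 ± 0.29 and -3.58 ± 0.32, as was that of Nr1d2, at -1.98 ± 0.20 and -1.46 ± 0.33. In batch 1 the 2 times were on different plates, so plate and time cannot be told apart there.

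**Figure D3:**
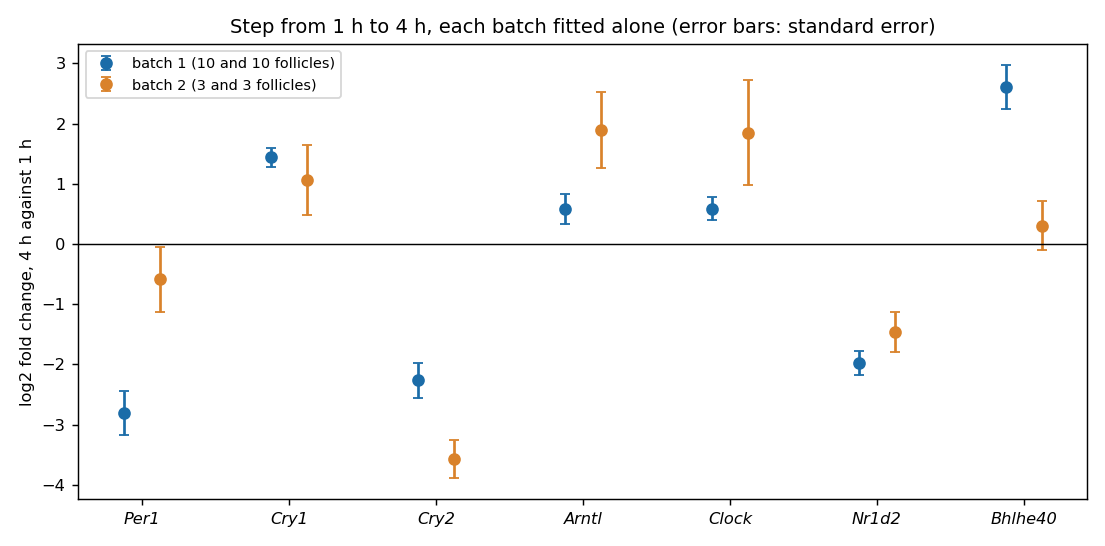
Points give the log2 fold change from 1 h to 4 h of the 7 clock genes tested in both batches, fitted in batch 1 (blue) and batch 2 (orange) alone, with standard errors. The 2 values lie far apart for Bhlhe40 (2.61 and 0.30) and Per1 (-2.81 and -0.59), and on the same side of 0 for all 7 genes.

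Levels were set between genes only in TPM, the scale that corrects for length, as means within a time. At 0 h the order ran from Nr1d2 (7.16 ± 1.91 TPM, SD, n = 9) and Cry1 (6.31 ± 3.22) to Clock (2.36 ± 1.66) and Per2 (0.291 ± 0.202). At 1 h Cry2 led at 89.8 ± 41.5 TPM (n = 13), followed by Per1 at 44.4 ± 19.8 and Bhlhe40 at 17.9 ± 10.7. At 4 h Bhlhe40 led at 87.5 ± 54.3 TPM (n = 13), then Cry1 at 27.5 ± 6.38 and Cry2 at 16.5 ± 7.61. At 8 h Bhlhe40 stood at 168.3 ± 76.8 TPM (n = 11) and Per1 at 24.6 ± 14.9. The order of neighbours held in every follicle for Clock over Per2 at 0 h, Nr1d2 over Cry1 and Cry1 over Arntl at 1 h, Nr1d1 over Per3 at 4 h, and Bhlhe40 over Per1 and Arntl over Nr1d2 at 8 h. All other neighbours changed places in at least 1 follicle.

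Across follicles of the same time, 1 of the 6 gene pairs examined in batch 1 moved together. Per1 and Bhlhe40 had r = 0.56 (permutation p = 0.0021, adjusted over 6 pairs 0.012) and rho = 0.62 (permutation p = 3.5e-04, adjusted 0.0021) over 31 follicles, after each time's mean was removed. Without the 2 follicles farthest from the Per1 median r was 0.47 (permutation p = 0.020). Within 1 h, 4 h and 8 h it was 0.50, 0.68 and 0.55, none of which passed adjustment over 18 values (permutation, adjusted p = 0.50, 0.31 and 0.33), and after thinning all libraries to the same total it was 0.45 with a permutation adjusted p of 0.095. The other pairs had r between -0.30 (Nr1d1 with Arntl) and 0.33 (Arntl with Clock), with permutation adjusted p from 0.41 to 0.83. For Nr1d1 with Nr1d2 it was -0.04, for Per1 with Per2 0.17 and for Per2 with Cry1 -0.18. Per2 and Nr1d1 had median counts of 1 to 9.5 per time in these follicles.

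**Figure D4:**
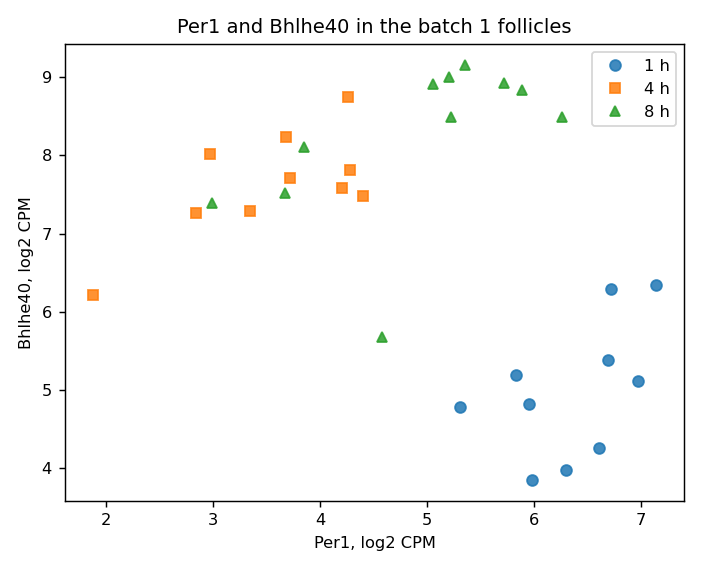
Each point is 1 of the 31 batch 1 follicles, with log2 CPM of Per1 on the x axis and of Bhlhe40 on the y axis, and symbols give the time. Within each time follicles with more Per1 tended to have more Bhlhe40, with r of 0.50, 0.68 and 0.55.

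Over the same 31 follicles, now with the changes between times left in, the genes most like each member were sought among 8512 named genes. Bhlhe40 was followed by Socs3 (r = 0.97) and Tnfrsf1a (0.95), Per1 by Fosl2 (0.91) and H1f0 (0.86), Cry2 by Ell2 (0.92) and Atg101 (0.91), and Cry1 by Spry2 (0.91) and Gcnt4 (0.91). Arntl had Tmem129 (0.84) and Triobp (0.80). Clock reached 0.68 with Zfp329 and 0.66 with Zmpste24, and Nr1d1 0.66 with Repin1 and 0.65 with Lipt2. For Per3 (Rbm20 0.86, Fam81a 0.85) and Nr1d2 (Myf5 0.91, Bphl 0.91) the partners had a median of 1 or 2 counts per follicle. These values describe likeness over 3 times and 31 libraries that share plates, and carry no test.

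Other genes of the clock gave the setting. Of 23 listed, 13 passed the filter, and 3 rose and 4 fell at 1 h, 5 rose and 7 fell at 4 h, and 2 rose and 6 fell at 8 h, all against 0 h. Over all genes tested the shares that rose and fell were 12.4% and 22.2%, 21.9% and 32.2%, and 17.5% and 27.6%. Nfil3, a repressor that binds D-boxes, rose against 0 h by 4.95 ± 0.58, 2.87 ± 0.59 and 4.07 ± 0.63 on the log2 scale at 1, 4 and 8 h, from no count in 6 of the 9 follicles at 0 h to 7.17 to 43.9 CPM at 1 h. As its 0 h level is near 0, the size of that rise depends on the fit. Tef, an activator at the same elements, was at a median of 13.0 CPM at 0 h and 12 at 1 h and fell by 2.63 ± 0.42 at 4 h and 2.55 ± 0.51 at 8 h, both against 0 h. Tef passed the filter on libraries of 0 h and 1 h alone. Dbp, another activator at D-boxes, had at most 3.91 CPM in any follicle and was not tested.

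Noct (Nocturnin, a phosphatase with a rhythmic transcript) ran from 73.9 to 239 CPM at 0 h and from 296.9 to 1625 CPM at 1 h, a log2 fold change of 2.58 ± 0.42, and was still 1.61 ± 0.43 higher at 4 h. Timeless rose by 0.97 ± 0.33 at 1 h, whereas Tipin, its binding partner, fell by 1.48 ± 0.39, 3.39 ± 0.42 and 2.91 ± 0.46 on the log2 scale at the 3 times. Cipc, a repressor of CLOCK, fell by 2.10 ± 0.44 at 1 h, and Btrc, which marks PER proteins for breakdown, by 0.92 ± 0.34. Usp2, a deubiquitinase, fell by 2.79 ± 0.57 at 4 h and 3.74 ± 0.71 at 8 h. It passed the filter on 8 libraries of 1 h and 1 of 0 h and on none of 4 h or 8 h, so a fall from 1 h follows in part from how it entered the test. Of the kinases that phosphorylate PER proteins, Csnk1e was up by 1.77 ± 0.33 at 4 h and Csnk1d by 0.71 ± 0.20 at 8 h.

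Between times 4 of the 13 rose and 7 fell from 1 h to 4 h, 3 rose and 2 fell from 4 h to 8 h, and 2 rose and 6 fell from 1 h to 8 h. Of all genes 26% rose and 28.9% fell in the first of these steps, 19.8% and 21.6% in the second and 23.2% and 25.9% in the third. Usp2 and Tef are named here with the limit given above on how they passed the filter. From 1 h to 4 h Csnk1e (1.08 ± 0.25), Cipc (0.76 ± 0.33) and Fbxw11 (0.61 ± 0.13) rose and Usp2 (-3.20 ± 0.41), Tef (-2.53 ± 0.32) and Nfil3 (-2.08 ± 0.33) fell. Rora, the activator that competes with the REV-ERB receptors, rose by 2.04 ± 0.30 from 4 h to 8 h, from a median of 11.2 to 64.7 CPM. At 4 h Rora was at -1.10 ± 0.42 against 0 h and -1.20 ± 0.30 against 1 h, both called. Nfil3 (1.21 ± 0.34) and Gsk3b (0.25 ± 0.09) also rose from 4 h to 8 h, and Csnk1e (-0.90 ± 0.23) and Fbxw11 (-0.53 ± 0.13) fell. Against 0 h Gsk3b was lower at 1, 4 and 8 h (-0.50, -0.70 and -0.45, all called). From 1 h to 8 h Rora (0.85 ± 0.30) and Csnk1d (0.73 ± 0.14) rose, and Usp2 (-4.15 ± 0.47), Tef (-2.45 ± 0.33) and Noct (-1.70 ± 0.33) fell furthest. In the step from 1 h to 4 h, 1 of 8 tested differed between batches (Tipin, -2.11 ± 0.62), beside 5.09% of all genes.

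**Figure D5:**
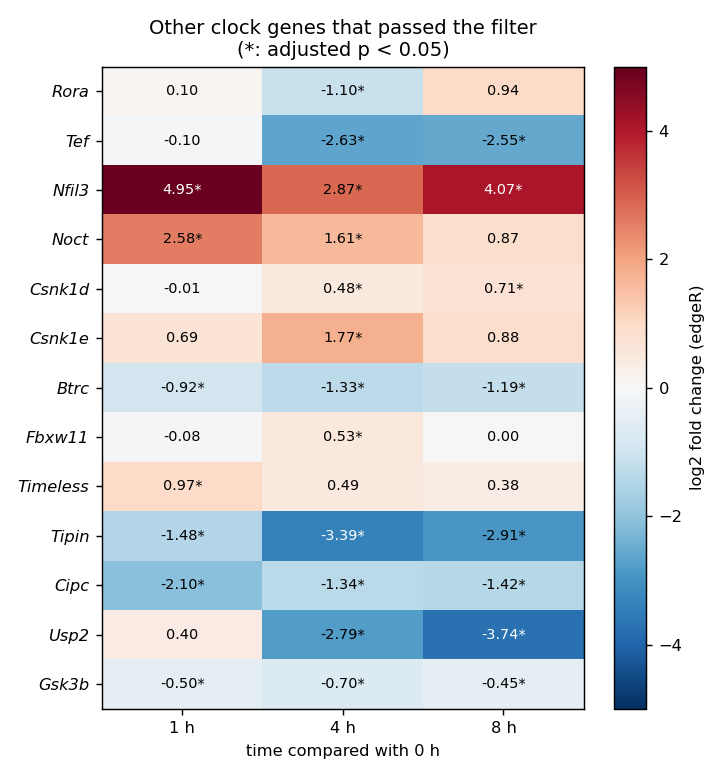
Cells give the edgeR log2 fold change against 0 h at 1, 4 and 8 h for the 13 other clock genes that passed the filter, red for higher and blue for lower, with a star where the adjusted p was under 0.05. Nfil3 was highest at 4.95 (1 h) and Usp2 lowest at -3.74 (8 h).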

How the data were processed

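Polyadenylated RNA of single follicles was amplified with Smart-Seq2 and sequenced paired-end from Nextera XT libraries, which keep no strand, per the labels' protocols. GRCm38, HISAT2, Partek and DESeq2 are named in the submitters' processing notes, and versions are not given in the sources used here. The count table holds whole counts per gene that the authors adjusted between batches with ComBat-seq, per the file names, and the TPM table was made by the authors from those counts. The authors' deposited table gives signed fold changes (a score, negative for a fall), p-values and a step-up false discovery rate against 0 h. The adjustment and the tests here both use batch, so p-values may be too small. A further 10 columns of the count and TPM tables fit none of the described follicles and were left out.

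Counts were tested with edgeR 4.0.16 (TMM, filterByExpr with a minimum count of 10, quasi-likelihood F test, design of time plus batch, all 46 libraries) and adjusted by Benjamini-Hochberg over all genes tested. The difference of the step from 1 h to 4 h between batches was fitted on the 26 libraries of those times. Standard errors came from the F statistic. CPM used TMM library sizes, and log2 CPM a prior count of 2. Pair correlations used 100000 two-sided permutations within times, and p-values were adjusted over the 6 pairs. The code was tested on simulated data. DESeq2 1.42.0 and limma 3.58.1, on log2(TPM + 1) or log2(TPM + 0.1) with a mean TPM of at least 1, were alternatives, beside other scaling, filters, batch terms and left-out libraries. No libraries were identical. Promoter windows came from RefSeq (GRCm38.p6) and positions and exon overlaps from GENCODE on GRCm38.

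All 10 members were named whatever their result. Of the other clock genes up to 3 called rises and 3 called falls by size were named in each comparison, and for each tested member the 2 most correlated genes. Of the list of other clock genes 1 is not reported here and is left out of its counts. The members and lists were chosen with earlier results of these data known.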

Additional observations from a re-analysis of the deposited data

Results flagged for a closer look

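In 3 groups of 9 or 10 follicles (0 h, and batch 1 at 1 h and at 4 h) each of the 10 genes was checked for 1 follicle far from the others, by the gap to its nearest neighbour over the whole range. Of the 30 checks 2 passed the 95% limit, and chance passes about 5%. Arntl was at 17.1 CPM (32 counts) in 0 h replicate 3, against 10.1 CPM in the next follicle. Nr1d2 was at 34.6 CPM in 4 h replicate 10, against 19.9 CPM in the next, and rested there on 9 counts in the smallest library (241442 counts).

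The step from 1 h to 4 h differed between batches for 2 genes, by a test of the difference itself. It was 2.19 higher in batch 2 than in batch 1 on the log2 scale for Per1 (edgeR adjusted p = 0.040) and lower by 2.32 for Bhlhe40 (-2.32, edgeR adjusted p = 0.032). At 1 h the ranges of the batches overlapped for both genes: Per1 was at 26.8 to 41.3 CPM in batch 2 and 38.2 to 140.0 in batch 1, and Bhlhe40 at 54.6 to 76.2 and 13.1 to 79.8 CPM. The medians at 1 h lay apart, at 34.6 CPM in batch 2 and 86.8 in batch 1 for Per1, and at 61.6 and 30.1 CPM for Bhlhe40.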

How the results depend on the processing

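Under 21 alternatives, 854 of 950 member fold changes kept their direction and side of the threshold, 70 lost and 22 gained a call, and 4 called values turned sign: with a term for each of the 3 library sets, Per1 from 4 h to 8 h (-0.67), Arntl at 8 h (-0.0068) and Per3 from 1 h to 4 h (0.087), and Per3 in that step in batch 2 alone (0.12). In those 2 fits that step rests on 6 follicles, and the cause was not tested. Among the 854, 39 changed sign with no call in either fit. Called members fell from 6, 6 and 7 at 1, 4 and 8 h to 2, 2 and 2 with the replicate block, which also cut all genes called to 355, 1479 and 852. Replicate numbers did not pair the follicles: correlations of deviations ran from -0.20 to 0.25, and a follicle matched its own number best in 13 of 124 cases. Thinning to the smallest total left 3 called members at 1 h, 3 at 8 h, 5 from 1 h to 4 h and 5 over all times, with fewer counts to test. In each of the last 2 the main fit called 8. Of the 8629 genes of the main fit 3177 were still tested after thinning. Over all genes 456 then rose and 425 fell at 1 h, 731 and 671 at 8 h, and 958 and 936 from 1 h to 4 h. Any change over time was called for 2621. From 1 h to 4 h 4 members were called with the 3 sets and 3 in batch 2 alone, against 8 in the main fit. In batch 2 alone 1242 of all genes were called in that step. From 4 h to 8 h 1 member was called with the 3 sets, against 3 in the main fit. The batch difference was called for 1 member without the filter, where 211 of all genes were called, and for 1 by limma on TPM, against 2 in the main fit. Leaving out each of the 6 batch 2 follicles after hCG gave 4 to 6 members at 1 h, 5 to 6 at 4 h, 6 to 7 at 8 h and 8 from 1 h to 4 h. The ranges over all genes given below cover these fits too. They do not give each fit singly, so the member counts of the 3-set, left-out and limma fits cannot be set against all genes. The Per1 and Bhlhe40 correlation was 0.45 after thinning (permutation adjusted p = 0.095) and was called under the other alternatives run. All genes called ranged from 355 to 4212 at 1 h, 1479 to 6274 at 4 h, 852 to 5630 at 8 h, 1242 to 5317 from 1 h to 4 h, 1399 to 3836 from 4 h to 8 h, 1809 to 5442 from 1 h to 8 h, 2621 to 9337 over all times and 211 to 492 for the batch difference, beside 2985, 4673, 3892, 4733, 3567, 4239, 6883 and 296. Without the 5 0 h libraries marked _ds, the Nr1d1 falls (-0.78, -0.74 and -1.47), the Nr1d2 rise at 1 h (0.78), Per3 at 1 h (-1.83) and Arntl at 8 h (0.75) were not called, while Cry1 at 1 h (0.95) and 8 h (0.93) and Clock at 1 h (-1.13) gained a call. At 1 h the medians of 3 to 5 counts limit Nr1d1, Per3, Per2, Arntl and Clock.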
